A study of Mus musculus with 8 samples.

Results

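The 69 genes described here are the replication-dependent histone genes of the mouse, chosen by symbol as every row of the count table named Hist1h to Hist4h, out of 24454 rows. By symbol they belong to the linker histone H1 (6 genes) and the core histones H2A (19), H2B (19), H3 (12) and H4 (13). Hist1h2al, counted under H2A, and Hist3h2bb-ps, counted under H2B, are annotated as processed pseudogenes. Reads were counted in 8 pools of sorted yolk sac cells at stage E11.5, all from C57BL/6 embryos with 1 allele of the miR-144 and miR-451 locus replaced by a GFP reporter, so no pool came from embryos without it. The double positive group was 2 pools of 24 cells carrying both VE-Cadherin, the endothelial adhesion protein, and GFP, which marks activity of an erythroid microRNA locus. The erythroid group was 3 pools of 25 cells with GFP alone, and the endothelial group 3 pools of 25 cells with VE-Cadherin alone. The labels do not say whether pools came from separate embryos, so p-values measure the spread between pools, which may be technical.

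Each round of DNA replication needs new histones to package the copied genome, and cells make most of them from these clustered genes during S phase. Their mRNAs are unusual: most have no introns and end not in a poly(A) tail but in a short 3′ stem-loop bound by SLBP, the stem-loop binding protein. Some of these genes also give polyadenylated transcripts, known above all from differentiated cells. The libraries were primed with oligo-dT, which captures poly(A) RNA, so a histone mRNA ending at its stem-loop is poorly captured and the levels here do not stand for total histone mRNA. Primitive erythroid cells at this stage still divide in the circulation before they leave the cell cycle.

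The genes lie in 4 clusters in GRCm38. The Hist1 cluster held 55 of the rows on chromosome 13, of which 54 lay within 2.22 Mb (chr13:21715763-23934851) and Hist1h2al lay apart from them. Hist2 on chromosome 3 held 10, Hist3 on chromosome 11 held 3 and Hist4 on chromosome 6 held 1. A stem-loop of 16 bases was searched for in the annotated GENCODE transcript of each gene, as GG, 4 bases of any kind, a loop of 4 bases reading TNTN, and the reverse complement of the first 6 bases. It was found in 45 of the 69 members and in 216 of 58725 protein-coding transcripts of other genes (0.368%). The 3 most frequent forms and the form of Hist1h4i are shown because the account of 3′ ends rests on them, with the stem in capitals and the loop in lower case.
H2A, H2B, H3 and H1 genes (25 members): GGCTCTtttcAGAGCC
H4 genes (7 members): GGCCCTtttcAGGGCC
H3, H2B and H1 genes (6 members): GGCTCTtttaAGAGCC
Hist1h4i and Hist2h4 (2 members): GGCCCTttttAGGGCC

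Total counts ran from 3723128 to 7618444 per library, and histone counts from 748 to 2073. Globin genes took 8.86% and 14.0% of the counts in double positive libraries, 54.5% to 56.5% in erythroid libraries and at most 0.00404% in endothelial libraries. Levels are therefore given as CPM after scaling by the trimmed mean of M values method (TMM), which sets aside such dominant genes. Scaling by library size alone moves the median log2 difference over all 12136 genes tested by -1.54 for erythroid minus endothelial, by -0.63 for double positive minus endothelial and by 0.90 for double positive minus erythroid. Relative log expression (RLE) factors move it by -0.18, -0.13 and 0.05 in the same comparisons. Cell markers also set the pools apart. Over 8 visceral endoderm markers the summed level was 86280 to 88232 CPM in double positive libraries, 10.1 to 21.9 CPM in erythroid libraries and 29.4 to 45.8 CPM in endothelial libraries. Over 8 macrophage markers it was 103 to 136, 0 and 1063 to 2385 CPM in double positive, erythroid and endothelial libraries. Over 8 erythroid markers it was 78774 to 137472 CPM in double positive, 948840 to 1010859 CPM in erythroid and 21.8 to 48.3 CPM in endothelial libraries, where Gata1 and Klf1 were at 0. Cdh5, the VE-Cadherin gene, stood at 45.9 and 56.0 CPM in double positive, 0 in all erythroid and 173 to 233 CPM in endothelial libraries.

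Histone transcripts were found at low levels in every library. Between 38 and 52 of the 69 members had at least 1 count in a library, 59 had a count in some library, and 28 passed the filter on low counts and were tested (4 H1, 6 H2A, 8 H2B, 4 H3 and 6 H4 genes). The filter can keep a gene through the population where it is high, so counts over these 28 do not stand for all members. Summed over all 69, the level was 349 ± 104 CPM in double positive libraries (SD, n = 2), 373 ± 25.2 CPM in erythroid libraries (SD, n = 3) and 130 ± 9.10 CPM in endothelial libraries (SD, n = 3). The erythroid sum was 2.87 times the endothelial one on the TMM scale and 0.984 times with library size alone, so its direction depends on the scaling. In pools, fewer cells of a type and less RNA per cell cannot be told apart.

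On the TMM scale the H4 sum differed most between erythroid and endothelial libraries. Their summed level was 48.5 ± 12 CPM in double positive, 136 ± 8.41 CPM in erythroid and 23.2 ± 0.242 CPM in endothelial libraries (SD). The erythroid H4 sum was 5.87 times the endothelial one, and 2.01 times with library size alone. H3 genes summed to 8.35 ± 2.89 CPM in double positive, 27.1 ± 4.65 CPM in erythroid and 6.99 ± 3.01 CPM in endothelial libraries, an erythroid to endothelial ratio of 3.88 that stood at 1.33 with library size alone. The linker histone genes, H1, summed to 26.7 ± 6.09, 50.1 ± 10.9 and 17.2 ± 5.29 CPM in double positive, erythroid and endothelial libraries. Their erythroid to endothelial ratio of 2.91 was 0.994 with library size alone. H2A genes gave 56.8 ± 11.1, 90.5 ± 4.03 and 34.2 ± 5.49 CPM in double positive, erythroid and endothelial libraries, a ratio of 2.65 between erythroid and endothelial that was 0.908 with library size alone. H2B was the exception in the double positive pools, with 209 ± 72.5 CPM there, 69.0 ± 17.1 CPM in erythroid and 48.2 ± 5.14 CPM in endothelial libraries. The erythroid H2B sum was 1.43 times the endothelial one, and 0.49 times with library size alone, a difference about as large as that of H4 there but in the other direction. A single gene, Hist1h2bc, carried the high H2B sum of the double positive pools. Without it the H2B sum was 13.2 ± 2.97, 41.0 ± 3.49 and 17.3 ± 0.912 CPM in double positive, erythroid and endothelial libraries. The erythroid to endothelial ratio was then 2.36, and 0.81 with library size alone.

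**Figure D1:**
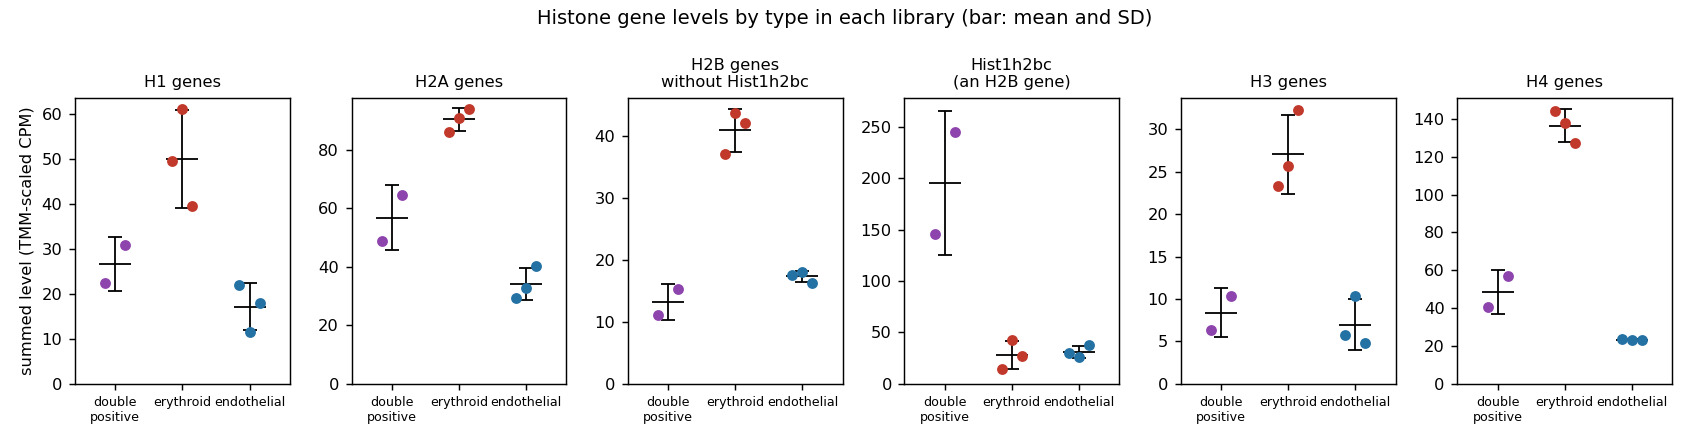
Summed TMM-scaled CPM of each histone type in every library, with Hist1h2bc drawn apart from the other H2B genes; points are libraries, bars the mean and SD. Erythroid libraries stand above the others in every panel except Hist1h2bc, where the 2 double positive libraries stand at 146 and 245 CPM; with library size alone the erythroid H1, H2A and other H2B sums are no longer above the endothelial ones.

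The make-up of the histone counts does not depend on scaling between libraries, since each share is taken within a library. Hist1h2bc made up 53.1% (95% exact interval 50.5 to 55.7%) and 57.9% (55.7 to 60%) of the histone counts in double positive libraries. In erythroid libraries it made up 4.14% (3.20 to 5.27%), 10.5% (8.87 to 12.3%) and 7.47% (5.99 to 9.18%), and in endothelial libraries 23.2% (20.5 to 26%), 21.0% (18.1 to 24.1%) and 26.8% (23.9 to 29.9%). No interval of 1 population met that of another, and the double positive shares lay above those of both other populations rather than between them. H4 genes took 14.7% and 13.4% of histone counts in double positive libraries, 40.5%, 34.3% and 35.1% in erythroid libraries and 18.3%, 19.1% and 16.4% in endothelial libraries. The erythroid H4 shares lay above all others. Hist1h4i and Hist1h4d gave most H4 counts in erythroid libraries, 459 of 617, 348 of 434 and 268 of 390. In endothelial libraries they gave 107 of 177, 85 of 143 and 106 of 142, and in double positive ones 156 of 211 and 226 of 278. The H4 shares therefore do not stand for every H4 gene. The low H4 shares of the double positive libraries depended on Hist1h2bc: of the counts of the other 68 members, H4 genes took 31.3% and 31.8% in double positive libraries, 42.3%, 38.3% and 37.9% in erythroid libraries and 23.8%, 24.2% and 22.4% in endothelial libraries, so that the double positive shares then lay above the endothelial ones. H1 genes took 7.33% and 8.12% in double positive, 10.9% to 15.2% in erythroid and 9.49% to 17.3% in endothelial libraries, where erythroid and endothelial values overlap. Without Hist1h2bc the H1 shares were 17.3% and 17.4% in double positive, 11.8% to 17.0% in erythroid and 12% to 22.5% in endothelial libraries, and the double positive ones lay within the endothelial range. Intervals here cover counting error only, and PCR copies without molecular identifiers make them too narrow.

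**Figure D2:**
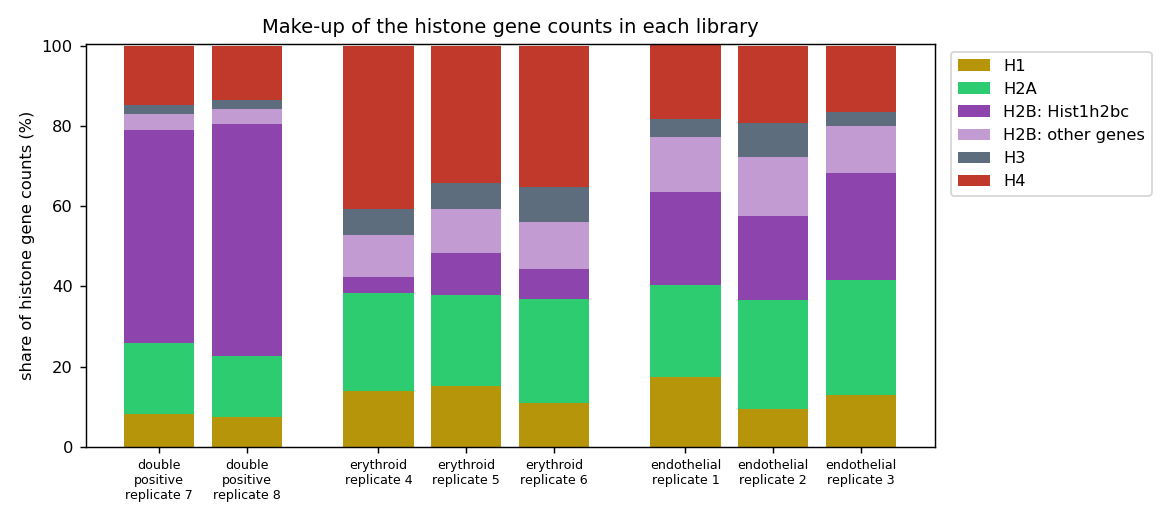
Share of each library's histone gene counts taken by H1, H2A, Hist1h2bc, the other H2B genes, H3 and H4, as stacked bars that sum to 100%. Hist1h2bc fills 53.1% and 57.9% of the double positive bars, and H4 fills 34.3% to 40.5% of the erythroid bars.

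Levels of different genes were compared per kilobase of exon. In double positive libraries the order was led by Hist1h2bc at 169 ± 60.1 CPM per kilobase, followed by the H2A gene Hist1h2ae at 39.4 ± 8.12 and the H4 genes Hist1h4i at 22.9 ± 10.8 and Hist1h4d at 18.7 ± 3.18, the last 2 within their spread. In erythroid libraries Hist1h4i (78.8 ± 22.7 CPM per kilobase) and Hist1h2ae (74.6 ± 7.87) led and did not differ beyond their spread. Hist1h4d followed at 38.9 ± 6.04, and Hist1h4n, Hist1h2bc and Hist1h1b stood close together at 24.5 ± 4.21, 24.2 ± 11.9 and 23.1 ± 4.89 CPM per kilobase. In endothelial libraries Hist1h2bc (26.7 ± 5.23 CPM per kilobase) and Hist1h2ae (19.8 ± 6.36) led, with Hist1h2bg at 12.9 ± 3.34 and Hist1h4i at 8.18 ± 1.11.

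Erythroid libraries were set against endothelial ones first, the comparison of GFP-only with VE-Cadherin-only cells of the same tissue. The endothelial libraries were not of vessel wall cells alone. Macrophage markers summed to 1063 to 2385 CPM there, beside 3843 to 5392 CPM for 8 endothelial markers, and were at 0 in erythroid libraries. The part of the macrophage cells in the differences was not tested. Of the 28 members tested, 13 were higher in erythroid libraries and 0 lower by edgeR's quasi-likelihood test (Benjamini-Hochberg adjusted p under 0.05 over all genes tested). The background was 14.4% of the 12136 genes called higher and 26.6% called lower. At an unadjusted p under 0.05, 16 members were higher and 1 lower. DESeq2 called 14 higher and 1 lower, limma-voom 15 and 0. The median log2 difference of the 28 was 1.83, against -0.36 over all genes tested, and 22 of the 28 were positive. With library size alone those medians were 0.29 and -1.90, and 2 members were called higher (Hist1h3c and Hist1h4i) and 3 lower (Hist1h2bc, Hist1h2bg and Hist3h2a), where 3.46% and 59.9% of all genes were called in those directions. The count higher was 7 without double positive replicate 7, and also 7 without replicate 8, libraries that enter this comparison only through the shared estimate of spread. It was 8 when only the 2 populations were fitted.

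H4, the most conserved core histone, gave 4 of the 13 calls. Hist1h4i (chr13:22040636-22041362, - strand) had 70.6, 62.5 and 38.8 CPM in erythroid libraries, against 5.02, 6.52 and 6.30 CPM in endothelial libraries. Every erythroid value lay above every endothelial one. The log2 difference was 3.27 (SE 0.41, adjusted p = 0.000278), and it kept its call under all 17 alternatives, at 1.72 with library size alone. Hist1h4d (chr13:23581598-23582735, + strand) stood at 36.4, 47.9 and 48.6 CPM in erythroid libraries and at 9.12, 7.33 and 10.8 CPM in endothelial libraries, again without overlap, as was so for 18.7% of all genes in that direction. Its log2 difference was 2.28 (SE 0.33, adjusted p = 0.000600), and 0.74 with library size alone (adjusted p = 0.0926). Hist1h4n averaged 10.5 ± 1.81 CPM in erythroid and 1.42 ± 1.17 CPM in endothelial libraries (log2 2.86, SE 0.86, adjusted p = 0.0255), and Hist2h4 averaged 6.28 ± 2.71 CPM in erythroid and 0.972 ± 0.485 CPM in endothelial libraries (log2 2.66, SE 0.89, adjusted p = 0.0394). Both lost the call without endothelial replicate 2, without erythroid replicate 4 and without either double positive replicate, with adjusted p between 0.0554 and 0.102, and Hist2h4 also without endothelial replicate 3 (adjusted p = 0.0821) or erythroid replicate 6 (0.0905).

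Among H2A genes, Hist1h2ae was the most abundant. It had 58.0, 47.0 and 52.5 CPM in erythroid libraries and 11.8, 10.9 and 19.1 CPM in endothelial libraries, with no overlap. The log2 difference was 1.92 (SE 0.32, adjusted p = 0.00142) and fell to 0.37 with library size alone (adjusted p = 0.345). Hist1h2ag, a less abundant H2A gene, had 7.46, 12.7 and 12.1 CPM in erythroid libraries against 1.06, 1.14 and 0.485 CPM in endothelial libraries. That is a log2 difference of 3.55 (SE 0.78, adjusted p = 0.00581), and 2.02 with library size alone (adjusted p = 0.0628). Hist1h2ab averaged 9.58 ± 2.72 CPM in erythroid and 1.81 ± 0.496 CPM in endothelial libraries (log2 2.39, SE 0.68, adjusted p = 0.0205). It lost the call without endothelial replicate 3, erythroid replicate 6 or either double positive replicate, at adjusted p between 0.0520 and 0.0612. All 3 of these H2A genes are overlapped on the opposite strand by a short annotated gene (Gm44394, Gm44486 and Gm44484), and reads of a gene and its antisense partner cannot be told apart where counting ignores strand. The strand setting is not given in the sources used here.

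Of the 4 H3 genes tested, 2 passed. Hist1h3c had 5.59, 13.3 and 9.13 CPM in erythroid libraries and 0.397, 0.815 and 0.646 CPM in endothelial libraries. Its log2 difference of 3.87 (SE 0.84, adjusted p = 0.00565) kept its call under all 16 alternatives in which it was tested. Hist1h3a rested on fewer reads, with 38, 13 and 23 counts in erythroid libraries and 1, 5 and 0 counts in endothelial libraries (log2 4.35, SE 1.28, adjusted p = 0.0229). Without endothelial replicate 1, erythroid replicate 4 or either double positive replicate its adjusted p was between 0.0558 and 0.0655. Hist1h3e did not pass, at 1.0 ± 0.376 CPM in erythroid and 1.75 ± 2.09 CPM in endothelial libraries (adjusted p = 0.715).

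Of the H2B genes, Hist1h2bj and Hist2h2bb passed. Hist1h2bj had 10.5, 12.1 and 7.5 CPM in erythroid libraries and 1.59, 1.14 and 0.646 CPM in endothelial libraries (log2 3.12, SE 0.77, adjusted p = 0.0102), and 1.58 on the log2 scale with library size alone (adjusted p = 0.123). Hist2h2bb had 29, 6 and 22 counts in erythroid libraries and 6, 1 and 0 in endothelial libraries (log2 3.91, SE 1.33, adjusted p = 0.0426), and lost the call without any 1 of 6 libraries, endothelial replicates 2 and 3, erythroid replicates 4 and 6 and double positive replicates 7 and 8 (adjusted p between 0.0636 and 0.0986). Hist1h2bg went against these in sign, at 4.20, 0.952 and 4.24 CPM in erythroid libraries and 8.59, 5.70 and 9.69 CPM in endothelial libraries. Its groups did not overlap, which held for 32.1% of all genes in that direction, and it did not pass (log2 -1.34, SE 0.81, adjusted p = 0.218).

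Of the 4 linker histone genes tested, 2 passed. Hist1h1e averaged 12.1 ± 6.04 CPM in erythroid and 1.92 ± 0.179 CPM in endothelial libraries (log2 2.65, SE 0.67, adjusted p = 0.0116; 1.11 with library size alone, adjusted p = 0.193). It shares exon sequence on the same strand with Hist1h2be. Hist1h1b averaged 17.2 ± 3.63 CPM in erythroid and 5.08 ± 2.10 CPM in endothelial libraries (log2 1.75, SE 0.53, adjusted p = 0.0270). Without endothelial replicate 2 or 3, erythroid replicate 5 or either double positive replicate its adjusted p was between 0.0584 and 0.0729. Hist1h1c, at 12.9 ± 2.49 and 6.85 ± 3.08 CPM in erythroid and endothelial libraries, did not pass (log2 0.91, SE 0.56, adjusted p = 0.225).

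**Figure D3:**
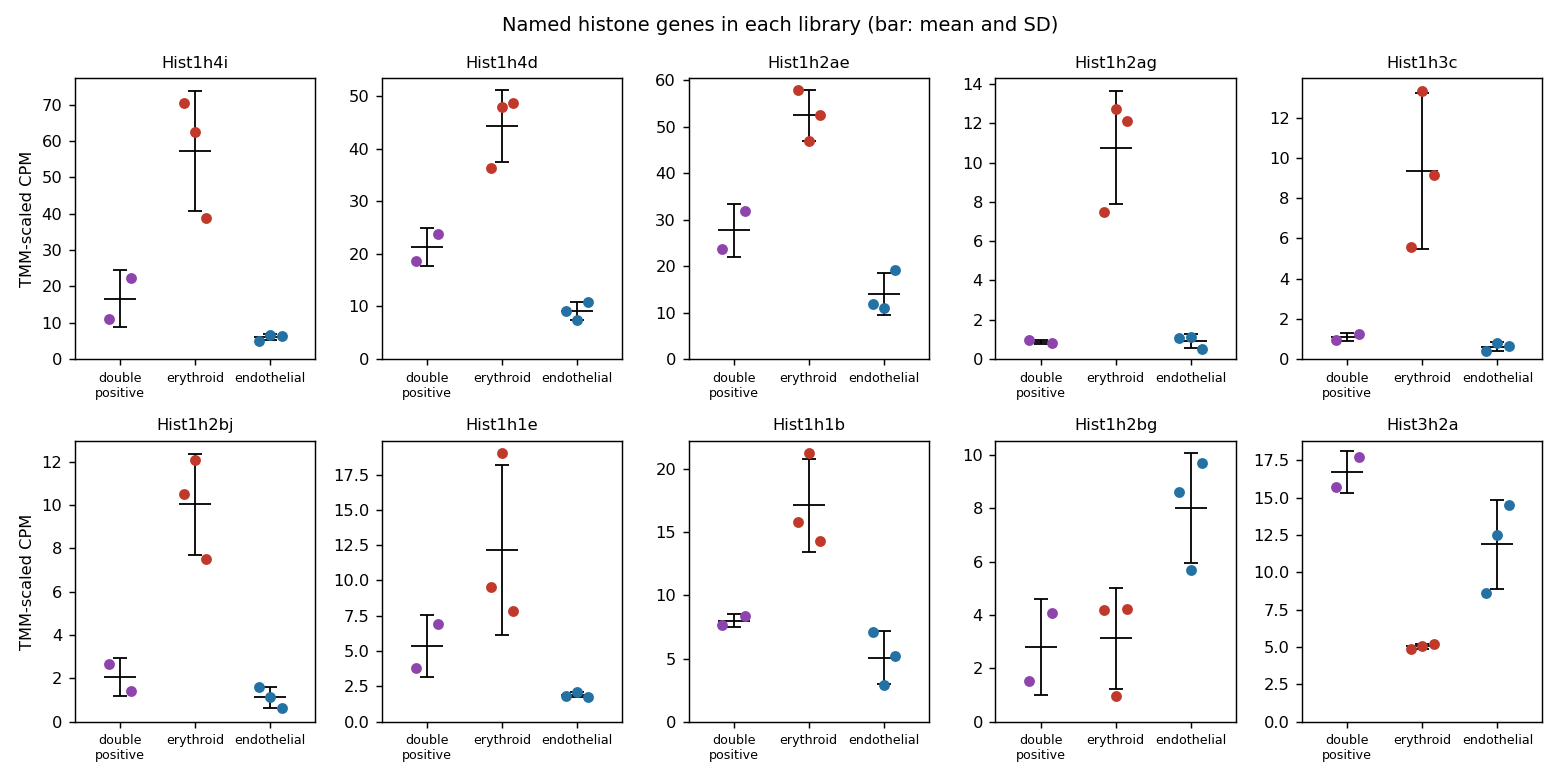
TMM-scaled CPM of 10 named histone genes in every library, double positive, erythroid and endothelial from left to right; points are libraries, bars the mean and SD. Hist1h4i reaches 38.8 to 70.6 CPM in erythroid libraries and at most 6.52 CPM in endothelial libraries, while Hist1h2bg and Hist3h2a are lowest or near lowest in erythroid libraries.

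The double positive pools stood out through Hist1h2bc. This H2B gene (chr13:23684199-23692908, + strand) is annotated with 2 exons, the second wholly in its 3′ untranslated region, and its spliced transcript of 1156 bases holds no stem-loop of the form searched. Hist1h2bc had 765 and 1200 counts in double positive libraries, 63, 133 and 83 counts in erythroid libraries and 224, 157 and 232 counts in endothelial libraries. On the TMM scale this was 146 and 245 CPM, against 14.7, 42.2 and 27.1 CPM in erythroid and 29.6, 25.6 and 37.5 CPM in endothelial libraries. Both double positive values lay far above all 6 others, while the erythroid and endothelial values overlap. It was 6.32-fold higher than in endothelial libraries (log2 2.66, SE 0.41, adjusted p = 0.00270) and 7.02-fold higher than in erythroid libraries (log2 2.81, SE 0.42, adjusted p = 0.000934). Both calls were kept under all 17 alternatives, over log2 differences of 2.01 to 2.98 against endothelial and 2.41 to 3.7 against erythroid libraries. Visceral endoderm markers, which summed to at least 86280 CPM in double positive and at most 45.8 CPM in the other libraries, moved with it, and their part in the result was not tested. Between erythroid and endothelial libraries Hist1h2bc did not pass (log2 -0.15, SE 0.38, adjusted p = 0.810), and with library size alone it was lower in erythroid libraries (log2 -1.69, adjusted p = 0.00481).

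Set against endothelial libraries, the double positive ones had 3 members higher and 0 lower of 28, where 14.6% and 6.92% of all genes were called in those directions. At an unadjusted p under 0.05, 4 were higher and 0 lower, and DESeq2 and limma-voom also called 0 lower. Beside Hist1h2bc these were H4 genes. Hist1h4i had 11.1 and 22.2 CPM in double positive libraries against the endothelial 5.02 to 6.52 CPM (log2 1.48, SE 0.42, adjusted p = 0.0364), and Hist1h4d had 18.7 and 23.8 CPM against 7.33 to 10.8 CPM (log2 1.22, SE 0.35, adjusted p = 0.0365). Neither overlapped with endothelial values, as was so for 32.9% of all genes. Both calls depended on the setting: RLE factors, library size alone and the fit of 2 populations each left only Hist1h2bc. Without any 1 of the 3 endothelial replicates, or without double positive replicate 8, neither passed, at adjusted p between 0.0502 and 0.381. Hist1h4i was also lost without erythroid replicate 5 (0.0529), and Hist1h4d without erythroid replicate 6 (0.0504) or double positive replicate 7 (0.116). The count higher was 1 without endothelial replicate 1, without endothelial replicate 2 or without double positive replicate 8.

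Against erythroid libraries, the double positive ones had 2 members higher and 4 lower, where 31.5% and 10.6% of all genes were called in those directions. This comparison shares its double positive libraries with the one before and its erythroid libraries with the first. The other member higher was Hist3h2a (chr11:58954685-58956830, + strand), an H2A gene outside the large cluster that overlaps Trim17 on the same strand. Hist3h2a had 15.7 and 17.7 CPM in double positive, 4.89, 5.08 and 5.22 CPM in erythroid and 8.59, 12.5 and 14.5 CPM in endothelial libraries. The log2 difference from erythroid libraries was 1.72 (SE 0.52, adjusted p = 0.0268), and the call was lost without double positive replicate 7 (0.121) or 8 (0.156). Its erythroid minus endothelial log2 difference of -1.23 (SE 0.48) did not pass, at adjusted p = 0.0677, but did with RLE factors (-1.42, adjusted p = 0.0409) and DESeq2 (-1.42, adjusted p = 0.0102).

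The 4 lower members were all among those higher in erythroid than in endothelial libraries. Hist1h2ag had 0.956 and 0.815 CPM in double positive libraries, within the endothelial range, against 7.46 to 12.7 CPM in erythroid libraries (log2 -3.56, SE 0.93, adjusted p = 0.0146). Hist1h3c had 0.956 and 1.22 CPM in double positive libraries, against 5.59 to 13.3 CPM in erythroid libraries (log2 -3.07, SE 0.96, adjusted p = 0.0302). Hist1h4i and Hist1h4d were also lower (log2 -1.78, SE 0.44, adjusted p = 0.0116, and log2 -1.06, SE 0.36, adjusted p = 0.0420). On the TMM scale Hist1h3c, Hist1h4i and Hist1h4d had double positive values above all endothelial and below all erythroid ones. The share of all genes placed in this way was not taken. For Hist1h3c this rested on 5 and 6 counts in double positive and 3, 5 and 4 in endothelial libraries. Its double positive minus endothelial difference did not pass (log2 0.80, SE 0.88, adjusted p = 0.597). With library size alone all 4 lower members kept their sign against erythroid libraries and none passed. The count lower was 0 without double positive replicate 7, 1 without replicate 8 and 2 without erythroid replicate 5 or 6. Without double positive replicate 7 the adjusted p of the 4 genes was 0.101 to 0.238, and without replicate 8 that of Hist1h2ag, Hist1h3c and Hist1h4d was 0.13 to 0.173. Hist1h3c and Hist1h4d were also lost without erythroid replicate 5 (0.0855 and 0.0920) or 6 (0.0568 and 0.0948), and Hist1h4d without endothelial replicate 1 (0.0508). Other tools called more: DESeq2 gave 7 lower and limma-voom 9.

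**Figure D4:**
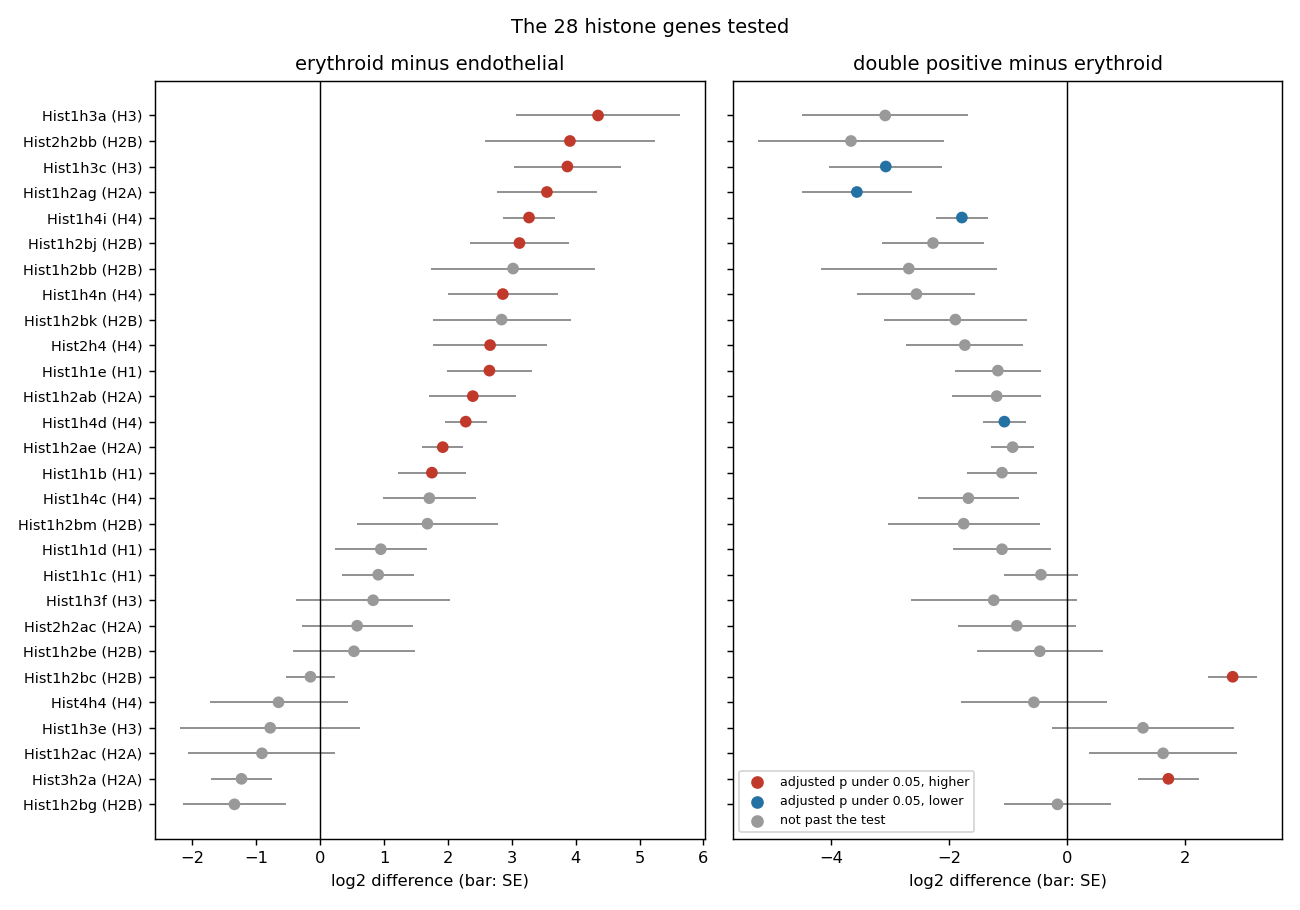
Log2 differences on the TMM scale of the 28 histone genes tested, erythroid minus endothelial and double positive minus erythroid, with the SE as bars; red and blue mark adjusted p under 0.05. In the first panel 13 genes are called higher and in the second 2 higher and 4 lower; with library size alone the counts are 2 higher and 3 lower, and 2 higher and 0 lower.

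Members were then split by the end of the annotated transcript. In 22 members it ended within 100 bases of the stem-loop, the class nearest to a normally processed histone mRNA. Within this class the annotated end lay from 3 bases (Hist1h4m and Hist1h2ap) to 74 bases (Hist1h3c) past the loop. The class therefore does not show where the mRNA ends. In 23 the annotated transcript ran more than 100 bases past the loop, which is a longer transcript of the kind that can carry a poly(A) tail. A polyadenylation signal (AATAAA or ATTAAA) was searched for in the last 50 annotated bases. Some members of this class held it, among them Hist1h4i and Hist1h2ae, and others did not, among them Hist1h4d. In 24 no stem-loop of this form was in the annotated transcript. For many of these 24 the annotated 3′ untranslated region was 0 bases long, so it could not hold a loop. The tested genes Hist1h1b and Hist2h2bb are among them, and for such members the class does not describe how the mRNA ends. The tested members nearest the limit were Hist1h3c at 74 bases and Hist1h2ae at 151 bases. The first class summed to 19.7 ± 1.06, 85.4 ± 12.9 and 12.4 ± 2.88 CPM in double positive, erythroid and endothelial libraries. For the second class the sums were 118 ± 30.3 CPM in double positive, 218 ± 11.9 CPM in erythroid and 75.2 ± 6.68 CPM in endothelial libraries. The erythroid to endothelial ratio was 6.87 in the first class, 2.90 in the second and 1.64 where no loop was found, and with library size alone 2.35, 0.995 and 0.561. Hist1h2bc made up much of the class with no loop. Without it that class summed to 16.2 ± 5.34 CPM in double positive, 41.1 ± 2.34 CPM in erythroid and 11.3 ± 1.27 CPM in endothelial libraries, an erythroid to endothelial ratio of 3.64, above that of the second class, and of 1.24 with library size alone. Of the first class 10 were tested and 6 called higher in erythroid libraries, with a median log2 difference of 2.94. Of the second 15 were tested and 5 called higher, with a median of 0.91. These medians were 1.42 and -0.64 with library size alone, so the sign of the second depends on the scaling. Over all genes tested, 14.4% were called higher and the median was -0.36. With library size alone the median over all genes was -1.90, below that of either class. A change of scaling shifts all genes by a similar amount. The order of the 2 classes could thus hardly change, and its being kept is no check on it. Of the first class 12 members were not tested, and of the second 8. The filter on low counts can keep a gene through its erythroid counts, which can favour a positive difference among tested members. These calls and medians therefore do not stand for all members of a class. The split was made with earlier results of these data known, and the difference between the classes was not tested. Hist1h4i (330 bases past its loop), Hist1h4d (770) and Hist1h2ae (151) belong to the second class.

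**Figure D5:**
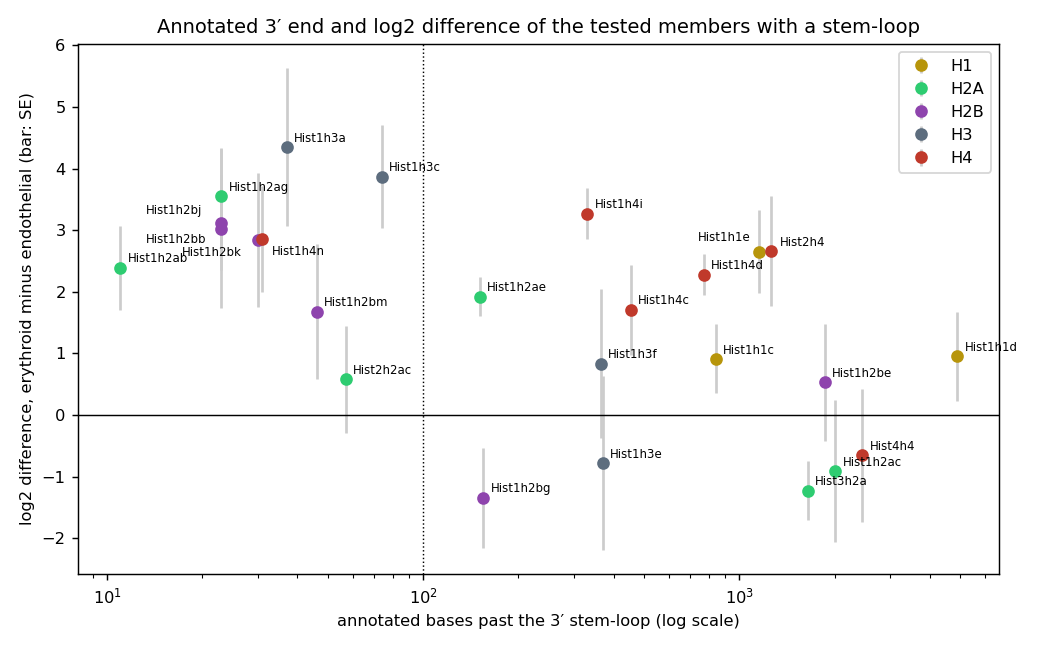
Log2 difference, erythroid minus endothelial on the TMM scale with its SE, of the 25 tested members that hold a stem-loop, against the annotated bases that follow the loop on a log axis; the dotted line marks 100 bases. All 10 members left of the line are above 0 and 5 of the 15 right of it are below 0. The filter on low counts can keep a gene through its erythroid counts, so these numbers do not stand for untested members. Library size alone lowers the median of all genes by 1.54.

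Many H2A and H2B genes stand head to head and share 1 stretch of DNA between their starts, where factors such as OCT1 at the octamer and NF-Y at CCAAT boxes are known to act. In RefSeq promoters (GRCm38.p6, 250 bases before to 50 after the start) 61 members were matched. The octamer ATTTGCAT, on either strand, was in 7 of 17 H2A and 6 of 16 H2B promoters, in none of the 6 H1, 10 H3 and 12 H4 promoters, and in 1.74% of all 32851 promoters. CCAAT was in every matched H1, H2A, H2B and H3 promoter and in 3 of 12 H4 promoters, against 37.4% of all. TATAAA was in 4 of 6 H1, 11 of 17 H2A, 8 of 16 H2B, 4 of 10 H3 and 8 of 12 H4 promoters, against 13.6% of all. Shown are the stretches between the starts of the 2 pairs with the most reads and, for contrast, the bases before the start of Hist1h4i; capitals mark octamer, CCAAT and TATAAA matches on either strand.
Hist1h2ae and Hist1h2bg, chr13:23571221-23571395, + strand: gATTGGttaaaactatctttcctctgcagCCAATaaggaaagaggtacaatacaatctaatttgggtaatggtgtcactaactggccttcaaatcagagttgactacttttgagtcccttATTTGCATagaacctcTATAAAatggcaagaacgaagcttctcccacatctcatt
Hist1h2ac and Hist1h2bc, chr13:23683949-23684198, + strand: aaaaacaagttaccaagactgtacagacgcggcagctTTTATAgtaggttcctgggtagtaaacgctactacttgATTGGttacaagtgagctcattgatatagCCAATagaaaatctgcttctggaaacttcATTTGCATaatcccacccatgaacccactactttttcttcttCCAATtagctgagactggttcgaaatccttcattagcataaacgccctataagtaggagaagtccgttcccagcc
Hist1h4i, chr13:22041363-22041612, - strand: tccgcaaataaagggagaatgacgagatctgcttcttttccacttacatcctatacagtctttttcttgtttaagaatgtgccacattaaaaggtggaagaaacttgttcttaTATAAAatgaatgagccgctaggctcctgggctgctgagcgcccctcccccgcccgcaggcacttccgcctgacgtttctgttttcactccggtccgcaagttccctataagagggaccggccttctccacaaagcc

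In the first pair, Hist1h2ae had 15.5 and 7.80 times the counts of Hist1h2bg in double positive libraries, 13.8, 49.3 and 12.4 times in erythroid libraries and 1.37, 1.91 and 1.97 times in endothelial libraries. The ratio, which needs no scaling between libraries, was thus lower in all 3 endothelial libraries than in the other 5. Hist1h2bg had only 8 and 20 counts in double positive and 18, 3 and 13 in erythroid libraries, so the ratio of 49.3 rests on 3 counts. The difference in this ratio was not tested. In the second pair Hist1h2ac had between 1 and 14 counts in any library beside the 63 to 1200 of Hist1h2bc, so the H2B side carried nearly all reads in every population. Another pair, Hist1h2ag and Hist1h2bj, stayed nearer to balance, with ratios of 0.357 and 0.571 in double positive, 0.711, 1.05 and 1.61 in erythroid and 0.667, 1.0 and 0.750 in endothelial libraries, on as few as 3 counts.

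Near-identical copies limit what the counts of single members mean. Of all windows of 50 bases in a member's annotated transcript, the share found in no other gene's transcripts was taken as unique. Genes overlapping the member on either strand were left out of this search, so windows shared with them count as unique. Such genes overlap Hist1h1e (91.8% unique) and Hist3h2a (98.0%), among others. The median share was 65.4% over the 28 tested members (14.4% to 100%). It was 45.4% over the 31 with counts that were not tested and 8.55% over the 10 with 0 counts in every library. Of those 10, 7 had under 50% unique windows, and reads from them may be discarded or given to a copy depending on the counting. The 10 also held Hist1h1t and Hist1h2ba, the testis linker histone and the testis H2B, with 100% and 61.8% unique windows. Hist1h4n, called above, had only 14.4% unique windows and Hist1h2ag 21.1%, so their values are uncertain as to gene. Hist1h4i had 71.1%, Hist1h4d 89.8% and Hist1h2bc 69.4%. The 41 members not tested held 3.91% and 3.96% of histone counts in double positive, 8.29% to 8.80% in erythroid and 5.55% to 11.1% in endothelial libraries.

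The histone variants that can be made outside S phase, from polyadenylated mRNAs, were read as a set of 14 genes, of which 10 were tested. Erythroid libraries had 5 of them higher and 4 lower than endothelial ones. H3f3a, 1 of the 2 genes for the variant H3.3, had 531 to 559 CPM in erythroid and 132 to 144 CPM in endothelial libraries (log2 2.00, SE 0.14, adjusted p = 9.30e-06), while H3f3b, the other, had 330 to 437 CPM in erythroid and 461 to 615 CPM in endothelial libraries (log2 -0.58, SE 0.16, adjusted p = 0.0182; not past the test without endothelial replicate 1 or 3 or erythroid replicate 5 or 6, at up to adjusted p = 0.0640). H1f0, the linker histone of non-dividing cells, had 93.9 and 60.9 CPM in double positive, 10.3, 5.39 and 4.89 CPM in erythroid and 138, 97.9 and 196 CPM in endothelial libraries. It was lower in erythroid than in endothelial libraries (log2 -4.36, SE 0.40, adjusted p = 5.50e-05) and higher in double positive than in erythroid libraries (log2 3.47, SE 0.41, adjusted p = 0.000280). H2afj, an H2A variant, averaged 28.8 ± 5.35, 98.7 ± 11.9 and 17.0 ± 2.21 CPM in double positive, erythroid and endothelial libraries. H2afx, the DNA damage variant, averaged 99.5 ± 0.935 CPM in double positive, 396 ± 161 CPM in erythroid and 110 ± 23.4 CPM in endothelial libraries, and H2afz 321 ± 63.9 CPM in double positive, 634 ± 41.2 CPM in erythroid and 240 ± 26.1 CPM in endothelial libraries. All 3 were higher in erythroid than in endothelial libraries (adjusted p = 5.77e-05, 0.00155 and 0.000127), but with library size alone H2afx was not past the test (adjusted p = 0.431) and H2afz changed sign. No variant passed between double positive and endothelial libraries with TMM factors. Against erythroid libraries the double positive ones had 3 variants higher and 5 lower.

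Genes that act on histone genes and their mRNAs were counted from lists fixed by function. Of 14 regulators of histone gene transcription, erythroid libraries had 2 higher and 0 lower than endothelial ones. Double positive libraries had 0 called against endothelial and 0 higher and 2 lower against erythroid ones. E2f2, an E2F factor of the cell cycle, averaged 4.17 ± 1.30, 48.6 ± 7.61 and 1.75 ± 0.581 CPM in double positive, erythroid and endothelial libraries (erythroid minus endothelial log2 4.77, SE 0.46, adjusted p = 6.13e-05). Npat, the coactivator that switches on histone genes on entry into S phase, did not pass in any comparison with TMM factors, at 22.8 ± 2.85 CPM in double positive, 30.5 ± 3.93 CPM in erythroid and 25.7 ± 8.43 CPM in endothelial libraries (adjusted p = 0.810, 0.404 and 0.604 for double positive against endothelial, double positive against erythroid and erythroid against endothelial). Npat was, however, called lower for erythroid against endothelial with library size alone (log2 -1.30, adjusted p = 0.00849). Casp8ap2, its partner at histone gene loci, stood at 36.4 ± 4.16 CPM in double positive, 41.1 ± 28.5 CPM in erythroid and 26.6 ± 9.47 CPM in endothelial libraries and did not pass either. Of 18 genes of histone mRNA processing and decay, 4 were higher and 0 lower in the erythroid set against the endothelial libraries. The double positive libraries had 0 higher and 1 lower against endothelial ones, and 0 higher and 8 lower against erythroid ones. Slbp had 61.9 and 76.0 CPM in double positive, 246, 180 and 281 CPM in erythroid and 81.3, 69.6 and 97.9 CPM in endothelial libraries. Its erythroid minus endothelial log2 difference was 1.51 (SE 0.22, adjusted p = 0.000646), but -0.04 with library size alone, while the double positive minus erythroid one of -1.77 (SE 0.25, adjusted p = 0.000765) passed under all 17 alternatives. Eri1, the nuclease that trims histone mRNA ends, averaged 36.2 ± 1.5 CPM in double positive, 98.3 ± 17.4 CPM in erythroid and 39.3 ± 5.86 CPM in endothelial libraries. Its erythroid minus endothelial log2 difference, past the test with TMM factors, changed sign with library size alone (-0.23, adjusted p = 0.418).

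Histone chaperones, which carry histones to DNA, gave 9 higher and 3 lower of 27 between erythroid and endothelial libraries, 2 higher and 4 lower between double positive and endothelial libraries, and 2 higher and 11 lower between double positive and erythroid libraries. Asf1b, a chaperone of dividing cells, averaged 59.7 ± 6.61, 276 ± 36.1 and 70.8 ± 10.3 CPM in double positive, erythroid and endothelial libraries (erythroid minus endothelial log2 1.96, SE 0.18, adjusted p = 4.69e-05; 0.42 with library size alone, adjusted p = 0.0652). Rbbp7 stood apart as a chaperone higher in double positive libraries, at 1560 and 1018 CPM there, 385, 343 and 362 CPM in erythroid and 311, 338 and 276 CPM in endothelial libraries (log2 2.06, SE 0.19, adjusted p = 0.000156 against endothelial, and log2 1.83, SE 0.19, adjusted p = 0.000127 against erythroid). Of 20 S phase genes, 18 rose and 0 fell in erythroid libraries relative to endothelial ones. In double positive libraries 1 rose and 4 fell relative to endothelial ones, and 0 rose and 16 fell relative to erythroid ones. With library size alone the first of these was 2 higher and 2 lower, the second 0 higher and 12 lower, and the last 1 higher and 15 lower. Mcm2, a subunit of the replicative helicase, averaged 60.9 ± 6.03, 423 ± 37.2 and 79.8 ± 13.7 CPM in double positive, erythroid and endothelial libraries (erythroid minus endothelial log2 2.40, SE 0.17, adjusted p = 1.30e-05; double positive minus erythroid log2 -2.79, SE 0.21, adjusted p = 2.56e-05). The first of these was 0.86 with library size alone. The double positive minus endothelial log2 difference of Mcm2 was -0.39 (SE 0.19, adjusted p = 0.190) and did not pass, while with library size alone it was -1.02 and passed (adjusted p = 0.0108). The shares of all genes called in each direction are those given with the histone counts above.

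The counts over these lists moved with the scaling, as did the share of all genes called. Of all genes, scaling by library size alone called 3.46% higher and 59.9% lower for erythroid against endothelial, 9.21% and 15.7% for double positive against endothelial, and 47.5% and 3.90% for double positive against erythroid. On that scale erythroid against endothelial libraries gave 2 higher and 5 lower of the variants, 1 and 6 of the transcription regulators, 0 and 6 of the processing and decay genes and 0 and 16 of the chaperones. Double positive against endothelial libraries then gave 0 higher and 4 lower of the variants, 0 and 1 of the regulators, 0 and 5 of the processing genes and 1 and 9 of the chaperones. Double positive against erythroid libraries gave 3 higher and 3 lower of the variants, 2 and 1 of the regulators, 3 and 1 of the processing genes and 6 and 5 of the chaperones. Where edgeR with TMM factors called 0 genes of a list in a direction, 0 to 2 of the list had an unadjusted p under 0.05 there, DESeq2 called 0 to 1 and limma-voom 0 to 2.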

How the data were processed

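RNA from 8 pools of sorted yolk sac cells was copied from oligo-dT primers by Smart-seq2 with 14 PCR cycles, per the labels' protocols. The authors deposited 1 table of unscaled read counts, a row for each gene symbol. HTSeq, FastQC and mm10 are named in the submitters' processing notes; the sources used here name no aligner, annotation, version or strand setting. From these counts, genes were kept by filterByExpr at a minimum count of 10 (12136 genes), library sizes of kept genes were scaled by TMM factors, and 1 quasi-likelihood model with robust estimation (edgeR 4.0.16, R 4.3.3) was fitted to all 8 libraries and compared the 3 populations in pairs, two-sided, at a Benjamini-Hochberg adjusted p under 0.05. Alternatives used limma 3.58.1, DESeq2 1.42.0, RLE factors, library size alone, other filters, fewer libraries, and globin genes or Rn45s removed. The fit was tested on simulated data.

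Positions, transcripts and promoters came from GENCODE (GRCm38) and RefSeq (GRCm38.p6). No 2 libraries were copies. Sums and shares over members carry no test. Named members were those past the test with the 10 smallest adjusted p per comparison, the 3 highest of each type, up to 4 genes per list and 9 genes chosen by name; Hist2h2bb and Hist2h4 are named beyond this rule, after their values were seen. The list of processing and decay genes holds 19 symbols, 18 of them in the table. The members, lists and tests were chosen with earlier results of these data known.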

Additional observations from a re-analysis of the deposited data

How the results depend on the processing

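No paired analysis was possible because the populations share no replicate numbers. Of 22 called member results, 4 kept the call under every alternative run (Hist1h2bc in both double positive comparisons, Hist1h4i and Hist1h3c between erythroid and endothelial), 17 lost it with library size alone, 13 without at least 1 library, and 0 changed sign. Members higher in erythroid than endothelial libraries numbered 13, against 2 with library size alone, 4 at a minimum count of 50 (8 members tested) and 8 with only the 2 populations; members lower numbered 0, against 1 with RLE factors, 1 with DESeq2 and 3 with library size alone. For double positive against endothelial, 3 were higher, against 1 each with RLE factors, library size alone and only the 2 populations. For double positive against erythroid, 4 were lower, against 0 with library size alone, 2 with no filter (59 members tested), 2 at a minimum count of 50, 7 with DESeq2 and 9 each with limma-voom and only the 2 populations. Leaving out 1 library gave 7 to 12 higher and 0 to 0 lower between erythroid and endothelial, 1 to 3 higher and 0 to 0 lower between double positive and endothelial, and 1 to 2 higher and 0 to 6 lower between double positive and erythroid libraries. Some alternatives held fewer genes or samples, and the causes of the changed calls were not tested.

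Among genes of the other lists, with library size alone the erythroid minus endothelial log2 difference changed sign for H2afz (-0.14), Cdk2 (-0.49), Slbp (-0.04), Eri1 (-0.23), Ncbp1 (-0.59) and Ssrp1 (-0.61), all past the test with TMM factors, and became a call against the TMM sign for Srrt (-1.01), Nap1l4 (-1.15), Rbbp7 (-1.31) and Npat (-1.30), which were not. The double positive minus endothelial one of H3f3b (-0.56) did likewise. CPM per kilobase was used only to compare genes. The common biological coefficient of variation was 0.5413. Calls on few counts rested on single libraries: Hist1h3a and Hist2h2bb, with 0 to 6 counts in endothelial libraries, lost the erythroid call without any 1 of 4 and of 6 libraries.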
